A study of Mus musculus with 36 samples.

Results

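Day 6 BV+SC+ cells, sorted as primordial germ cell-like cells (PGCLCs), were compared with unsorted Day 3 cells treated with SGC0946. The comparison rested on 3 of the 36 samples of the series, namely 2 BV+SC+ libraries and 1 Day 3 library. A gene was kept when both BV+SC+ libraries differed from Day 3 in the same direction by more than counting error, that is, when the 95% interval of each count ratio left out equality. Of the genes listed, 14802 had at least 10 counts in 1 of the 3 libraries and 14465 did not, and 8878 were kept.

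The study drives epiblast stem cells (EpiSCs), the primed pluripotent cells of the post-implantation mouse epiblast, towards the naive state with BMP4. The BV+SC+ cells came from EpiSCs with 2 fluorescent transgenes, BV (Blimp1-mVenus) and SC (Stella-ECFP), which report *Prdm1* and *Dppa3*. The shared protocol text describes 3 days of BMP4 with EPZ5676, a DOT1L inhibitor, and EPZ6438, an EZH2 inhibitor, then 3 days with PD0325901, CHIR99021 and vitamin C before sorting. The labels name replicate 1 by 2iJi and replicate 2 by GK15, a medium the study also tested in its second stage, so replicate and medium cannot be told apart. The paper's text does not use the name 2iJi. It reports a JAK inhibitor in the second stage, with reporter-positive cells that were almost negative for KLF4. Whether 2iJi refers to that inhibitor is not known here. The Day 3 title gives the day and SGC0946, another DOT1L inhibitor, and names neither a sort nor a reporter. Day, sort, medium and inhibitor therefore differed together between the groups and cannot be told apart. The cell line may differ with them, since the study also used EpiSCs of another line. EpiSCs (3 libraries) and Day 3 cells without SGC0946 (1 library) are given beside these values. Day 3 cells sorted as c-Kit+ or c-Kit- (2 libraries each) served as a readout that the choice of genes did not use.

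Primordial germ cells are the founders of the germline. They are set apart from the epiblast in response to BMP4, through the transcription factors *Prdm1*, *Prdm14* and *Tfap2c*, which hold back somatic genes. They regain genes of naive pluripotency, and genes of the meiotic programme follow later.

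The BV+SC+ libraries held 14778809 and 18099059 expected counts and the Day 3 library held 4776143, so that 3 counts stood for 0.203, 0.166 and 0.628 CPM (counts scaled to a common library size). Intervals of count ratios cover counting error only, since Day 3 had no replicate. The BV+SC+ libraries differed from each other by more than sampling noise (chi-square over degrees of freedom of 45.33). The labels do not say that replicates came from separate cultures, so p-values measure the spread between these samples. For the BV+SC+ libraries, which the labels name by different media, this spread includes any effect of the medium and is not replicate error alone.

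Of the kept genes, 4389 were higher and 4489 were lower in BV+SC+ cells, or 29.7% and 30.3% of the genes with enough counts. Since counting error is small at these depths, a size limit was added. In both libraries, 1736 genes (11.7%) were more than 2-fold higher and 2469 (16.7%) were more than 2-fold lower. Day 3 had no count for 225 of the higher genes, and neither BV+SC+ library had a count for 48 of the lower genes. As values just inside the limit, *Lgr4* was 2.00-fold and 2.43-fold higher, and *Smurf1* was 2.51-fold and 2.00-fold lower. Just outside it, *Sdc4* was 1.999-fold and 5.98-fold higher.

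**Figure D1:**
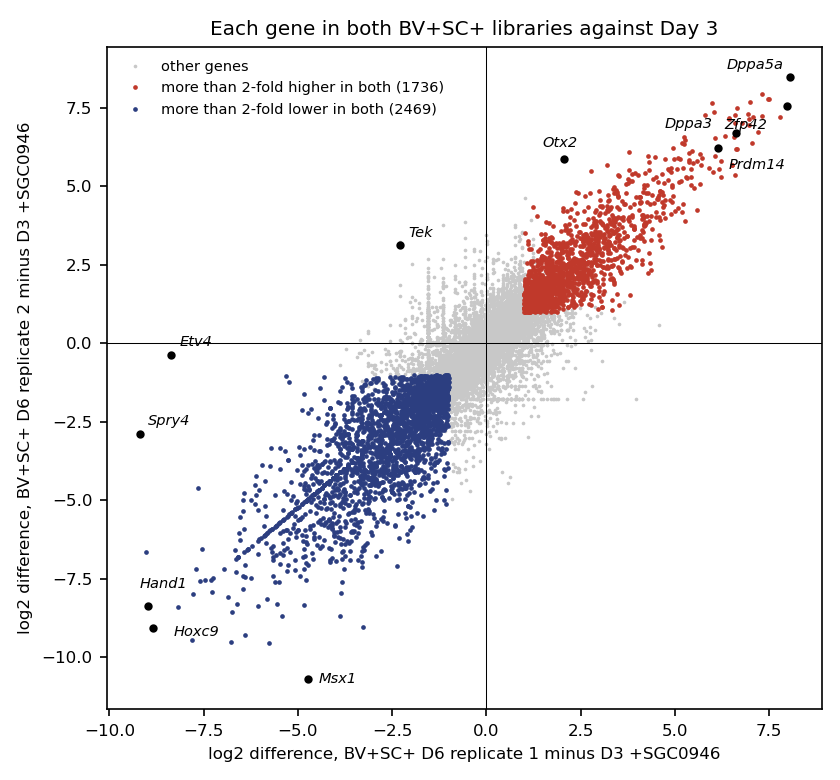
Log2 difference from the Day 3 library of each gene in BV+SC+ replicate 1 (x axis) and replicate 2 (y axis), with counts of at most 3 set to 3. Red and blue points are the 1736 genes more than 2-fold higher and the 2469 more than 2-fold lower in both libraries, grey points are other genes, and black points are named genes, of which *Tek* lies on opposite sides in the 2 libraries.

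Differences were tested with edgeR on all 7 libraries of this gene list, with the BV+SC+ libraries taken as replicates although their labels name different media. The test takes its spread from the EpiSC and BV+SC+ replicates, with 3 residual degrees of freedom, and assumes that the lone Day 3 library varies like them. Of 13688 genes tested, 1659 (12.1%) were called higher and 2203 (16.1%) lower, at a Benjamini-Hochberg adjusted p under 0.05 and a fold over 2. Counts of called genes in the lists below are to be read beside these shares. The median log2 difference over all genes tested was 0.05. The call was the same way for 3397 of the genes past 2-fold in both libraries, 56 were not tested, and 0 were called the opposite way. Adjusted p-values given beside genes come from this edgeR test. In bulk samples, fewer cells of a type and less RNA per cell cannot be told apart.

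The label of the sorted cells was set beside markers. *Dppa3*, the gene reported by the SC transgene, had 1162 and 1202 TPM (a share of all transcripts, corrected for length) in the BV+SC+ libraries, 12.7 in Day 3 cells and 0 in each EpiSC library. *Prdm14* had 40.3 and 40.9 TPM against 0.64. *Zfp42*, also known as Rex1, had 161 and 116 TPM against 0.71. All 3 were called higher, with log2 differences of 6.70 ± 0.27 (SE, adjusted p = 8.83e-05) for *Dppa3* and 6.18 ± 0.56 (adjusted p = 0.00026) for *Prdm14*. *Zfp42* had 3 counts at Day 3, and its log2 count ratio was 7.98 (interval 6.43 to 10.26) and 7.54 (interval 5.99 to 9.82). The summed level of the 7 PGCLC markers was 1811 and 1810 TPM in BV+SC+ cells, 207 at Day 3 and at most 3.00 in EpiSCs. *Dppa3* made most of the sums in BV+SC+ cells. Since the gate selected for reporters of *Dppa3* and *Prdm1*, neither gene is a check of the label. *Zfp42* is also on the naive list below. Of the other markers, *Prdm14*, *Dnd1* and *Tfap2c* were called higher and *Nanos3* was not called. Some sums of markers of other cells the dish could hold were lower than at Day 3 and others higher. The sum of 4 naive markers was 321 and 338 against 209.9 TPM. *Tbx3* made 187 TPM of it at Day 3, and *Esrrb* made 273 and 287 in BV+SC+ cells. The sum of 7 trophoblast-like markers was 123 and 41.5 against 621 TPM, and that of 4 mesoderm markers was 14.8 and 2.94 against 522 TPM. *Hand1*, also a trophoblast gene, made 493 of the 522 TPM. *Kdr* was called lower too, *T* was not called and *Mesp1* had too few counts. The sum of 5 fibroblast markers was 4.01 and 4.58 against 287 TPM, with *Dcn* at 0 in both BV+SC+ libraries, and that of 4 endoderm markers was 0.04 and 0.39 against 10.1. The 3 primed markers summed to 5.14 and 53.1 TPM in BV+SC+ cells and to 6.03 TPM in the Day 3 cells, which their label calls epiblast stem cells, against 296 to 403 TPM in EpiSCs. The sort moved with every value that follows, and its part in each was not tested.

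**Figure D2:**
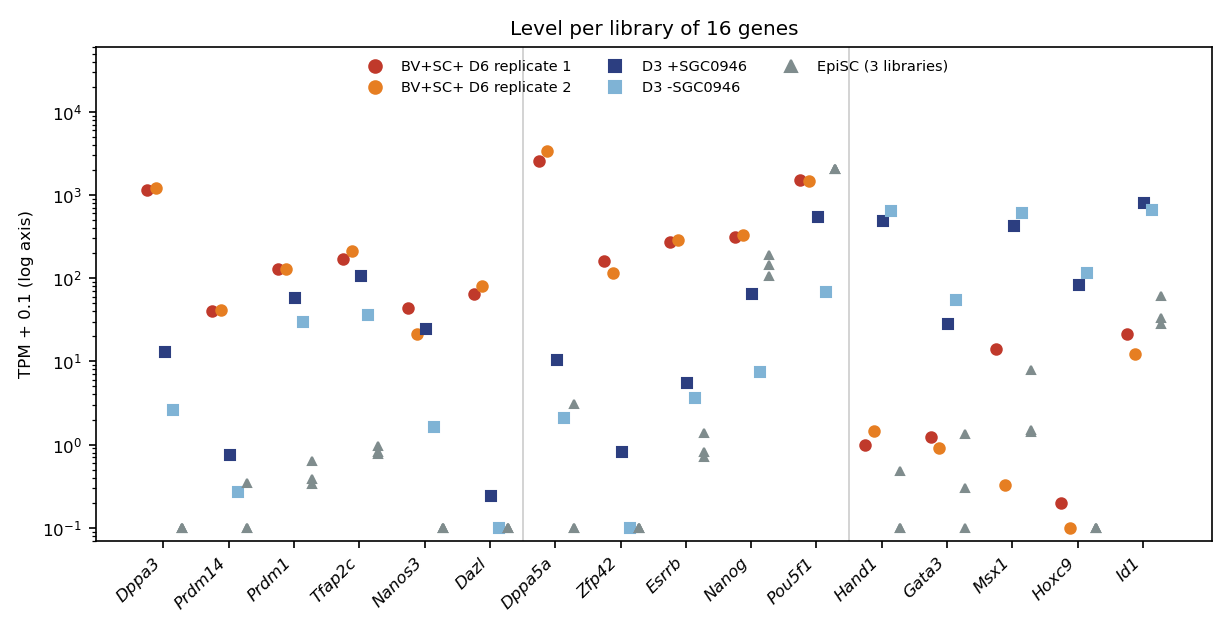
Level (TPM + 0.1, log axis) of 16 genes in each of the 7 libraries, with germ cell genes on the left, pluripotency genes in the middle and somatic or trophoblast genes on the right. Points are single libraries, so there are no error bars. *Dppa3* lies at 1162 and 1202 TPM in BV+SC+ cells against 12.7 at Day 3, and *Hand1* lies at 0.88 and 1.36 against 493.

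Genes that specify the germline were split between those already present at Day 3 and those that were not. Of 14 genes, 6 were called higher and 0 lower, against 12.1% and 16.1% of all genes tested. Their median log2 differences were 0.76 and 0.90 in the 2 libraries. Past 2-fold in both libraries were 3 of them, and 3 were called with the 3 compared libraries alone. *Dnd1*, an RNA-binding protein that protects germ cell transcripts, had 107 and 88.9 TPM against 5.48 (log2 difference 4.19 ± 0.47 (SE), adjusted p = 0.00061). *Prdm1*, which encodes BLIMP1, had 129 and 128 TPM against 57.5 at Day 3 (log2 difference 1.09 ± 0.20, adjusted p = 0.0049), and *Tfap2c* had 168 and 213 against 105 (1.10 ± 0.20, adjusted p = 0.0047). Both lie close to the 2-fold limit, and neither was past it in both libraries. Without BV+SC+ replicate 2, *Tfap2c* was at 0.89 and lost its call. *Nanos3*, needed for survival of germ cells, had 43.4 and 21.5 TPM against 24.7 and was not called (adjusted p = 0.57). *Ifitm3* had 747 and 989 TPM against 903 and was not called either (adjusted p = 0.78). *Kit*, the receptor used for sorting elsewhere in the study, had 146 and 170 TPM against 120, with a log2 difference of 0.63 ± 0.21 that stayed under 2-fold.

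Genes of later germ cells and meiosis were nearly silent at Day 3. Of 30 genes, 26 were tested, 20 were called higher and 0 lower, and 24 were past 2-fold in both libraries. DESeq2 called 13 of them higher. Their median log2 differences, with counts of at most 3 set to 3, were 2.99 and 3.89, and their summed level was 432 and 616 TPM against 20.4. *Dazl* (chromosome 17, 50279395 to 50293636), a translational regulator of germ cells, had 65.2 and 79.4 TPM against 0.14. That is 1573 and 2300 counts against 1, or log2 count ratios of 9.06 (interval 6.58 to 14.36) and 9.38 (interval 6.90 to 14.68). *Tdrd12*, of the piRNA pathway that silences transposons, had 137 and 151 TPM against 2.42 (log2 difference 5.84 ± 0.52 (SE), adjusted p = 0.00024). *Dmrt1* had 35.2 and 61.2 TPM against 5.12 (3.45 ± 0.55, adjusted p = 0.0027). Day 3 had no count of *Stk31* or *Tex15*. *Stk31* was at least 41.8-fold and 54.6-fold higher, and *Tex15* at least 48.0-fold and 55.5-fold higher, against 3 counts. *Sycp1*, of the synaptonemal complex, had 2.70 and 4.70 TPM against 1.40 and was not called (adjusted p = 0.11). Replicate 2 had the higher level for most of these genes, as for *Rnf17* with 11.3 and 30.7 TPM and *Sohlh2* with 6.49 and 31.2 TPM, both with no count at Day 3.

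Promoters of some genes of this list that were called higher are printed because many promoters of the list hold the short motif CACGTG. The sequences are from RefSeq (GRCm38.p6) and run 5′ to 3′ from 250 bases before to 50 bases after the gene start. Capitals mark CACGTG, the E-box, and GCGGGA, both searched on both strands. The *Ddx4* promoter lies at chr13:112652261-112652560 (minus strand), that of *Sycp3* at chr10:88459337-88459636 (plus strand) and that of *Stk31* at chr6:49395289-49395588 (plus strand).
Ddx4: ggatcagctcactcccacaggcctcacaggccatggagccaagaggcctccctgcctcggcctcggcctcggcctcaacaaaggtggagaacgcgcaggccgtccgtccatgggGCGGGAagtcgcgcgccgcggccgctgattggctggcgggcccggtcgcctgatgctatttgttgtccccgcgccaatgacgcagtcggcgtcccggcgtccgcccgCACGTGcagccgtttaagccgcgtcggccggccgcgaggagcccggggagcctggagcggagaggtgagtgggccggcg
Sycp3: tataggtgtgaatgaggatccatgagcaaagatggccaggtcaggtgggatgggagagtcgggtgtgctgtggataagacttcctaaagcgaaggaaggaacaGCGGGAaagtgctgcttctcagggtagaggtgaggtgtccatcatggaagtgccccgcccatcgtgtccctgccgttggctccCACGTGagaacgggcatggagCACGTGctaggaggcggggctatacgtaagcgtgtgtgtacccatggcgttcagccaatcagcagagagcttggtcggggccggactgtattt
Stk31: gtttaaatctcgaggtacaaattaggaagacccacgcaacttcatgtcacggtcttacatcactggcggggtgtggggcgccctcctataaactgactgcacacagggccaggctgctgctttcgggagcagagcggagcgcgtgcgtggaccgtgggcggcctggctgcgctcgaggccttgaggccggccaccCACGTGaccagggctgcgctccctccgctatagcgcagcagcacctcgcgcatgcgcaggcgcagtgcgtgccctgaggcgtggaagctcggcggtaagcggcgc

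CACGTG stood 29 bases before the start of *Ddx4*, 64 and 43 bases before that of *Sycp3* and 55 bases before that of *Stk31*. GCGGGA stood 136 bases before the start of *Ddx4* and 147 bases before that of *Sycp3*. Of 25 promoters of the list that were found, 14 (56%) held CACGTG, 10 (40%) held GCGGGA and 8 (32%) held both. Of all 27025 promoters, 7.24% held CACGTG, 20.0% held GCGGGA and 2.05% held both. Among promoters of genes with enough counts, the shares were 10.4%, 36.0% and 4.02%, so the GCGGGA share of the list was close to theirs. Of 16 promoters of list genes called higher, 9 (56.25%) held CACGTG. The tested but uncalled *Sycp1*, *Slc25a31*, *Taf7l*, *Taf9b* and *Tdrd1* held it too, and the untested *Sycp2*, *Tex101*, *Piwil4* and *Gtsf1* did not. The motif thus did not set called genes apart from uncalled ones. Of the genes more than 2-fold higher, 10.9% of 1278 promoters held CACGTG, close to the share of the genes with enough counts. The levels of the 3 printed genes were low: *Ddx4*, an RNA helicase of germ cells, had 9.01 and 9.44 TPM against 0.44. *Sycp3*, a synaptonemal complex protein, had 7.99 and 15.7 TPM against 0.50, but 56.5% of its transcript is shared with *Chpt1*, so its value is uncertain. *Stk31*, a kinase of germ cells, had 13.95 and 19.3 TPM against 0.

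Naive pluripotency genes were higher in BV+SC+ cells as a group, with exceptions among the KLF factors. Of 24 genes, 18 were called higher and 1 lower, with a median log2 difference of 3.48 in both libraries and a summed level of 5874 and 6842 TPM against 647. *Dppa5a* (GRCm38, chromosome 9, 78367052 to 78368177), an RNA-binding protein of pluripotent cells, had 2568 and 3363 TPM against 10.2 (log2 difference 8.30 ± 0.47 (SE), adjusted p = 6.49e-05). *Esrrb*, a nuclear receptor of the naive network, had 273 and 287 TPM against 5.47 (5.52 ± 0.21, adjusted p = 2.77e-05). *Tdh*, threonine dehydrogenase, had 807 and 641 TPM against 37.3 (4.60 ± 0.36, adjusted p = 0.00015). *Tbx3* was the gene called lower, with 3.18 and 2.37 TPM against 187 (-5.54 ± 0.31, adjusted p = 6.49e-05). *Klf4* had 2.85 and 9.73 TPM against 13.3 and was not called (adjusted p = 0.59). *Klf2* had 227 and 208 TPM against 121 and *Klf5* had 51.4 and 88.0 against 43.3, neither called (adjusted p = 0.36 and 0.13). *Klf5* had a log2 difference of 1.27 without BV+SC+ replicate 1, and *Klf2* was called without EpiSC replicate 1, at 1.05.

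The promoter of *Zfp42*, the gene of this list with the fewest counts at Day 3 together with *Tcl1*, holds an octamer, the binding motif of POU factors such as OCT4. It lies at chr8:43306960-43307259 (minus strand, RefSeq, GRCm38.p6), and the capitals mark ATTTGCAT, searched on both strands.
Zfp42: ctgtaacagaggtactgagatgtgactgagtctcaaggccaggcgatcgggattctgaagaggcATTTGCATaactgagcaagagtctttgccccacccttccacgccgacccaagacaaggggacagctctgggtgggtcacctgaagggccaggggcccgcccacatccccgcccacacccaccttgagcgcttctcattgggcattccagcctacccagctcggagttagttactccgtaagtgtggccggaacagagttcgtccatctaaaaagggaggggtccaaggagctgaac

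The octamer began 186 bases before the start. It was held by 1.75% of all promoters, by 1.88% of those of the genes more than 2-fold higher and by 1.75% of those more than 2-fold lower. Of 14 promoters found for the naive list, that of *Zfp42* alone held it.

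Core pluripotency genes, which primed and naive cells share, were also higher. Of 13 genes, 9 were called higher and 1 lower, with median log2 differences of 1.62 and 1.77. *Pou5f1*, which encodes OCT4, had 1509 and 1454 TPM against 549 (log2 difference 1.63 ± 0.12 (SE), adjusted p = 0.00011), below the 2057 to 2078 TPM of EpiSCs. Of its transcript, 21.7% is shared with *Gm19553*. *Nanog* had 312 and 329 TPM against 64.6 (2.52 ± 0.32, adjusted p = 0.0010), and *Sox2* had 345 and 470 against 101 (2.23 ± 0.35, adjusted p = 0.0024). *Lin28b*, which blocks let-7 maturation, was the gene called lower, with 7.06 and 4.53 TPM against 30.0.

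Primed epiblast genes were called in both directions. Their share called lower was close to the 16.1% of all genes tested, of which 12.1% were called higher. Of 16 genes tested, 5 were called higher and 3 lower, with median log2 differences of -0.19 and 1.31 in replicates 1 and 2. *Sox3* had 1.47 and 0.61 TPM against 72.8 (log2 difference -5.92 ± 0.35 (SE), adjusted p = 7.35e-05), and *Nodal*, a TGF-beta ligand, had 46.6 and 43.5 against 11.8 (2.15 ± 0.26, adjusted p = 0.00089). *Otx2*, a transcription factor of the epiblast, had 4.29 and 47.5 TPM against 1.00, and was not called (adjusted p = 0.067). The log2 difference of *Otx2* was 5.87 without BV+SC+ replicate 1 and 2.05 without replicate 2, and DESeq2 called it at 5.00. *Fgf5* had 0.45 and 4.09 TPM against 0.49, and 89.2 to 109 TPM in EpiSCs, and was not called. Its log2 difference was 3.26 without replicate 1, and it was called with no filter on low counts.

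Counts of at most 3 at Day 3 were set to 3 to order genes by the smaller of the 2 differences, so the order is uncertain for genes with so few counts. The protein-coding genes furthest higher by this order were *Dppa5a*, *Zfp42*, *Zfp980*, *Dazl*, *Inpp5d*, 2410141K09Rik, *Dnah8*, *Zfp988*, *Trim25*, *Gm10324*, *Zfp534* and *Rex2*. *Inpp5d*, the phosphatase SHIP1 that limits PI3K signalling, had 42.4 and 62.6 TPM against 0.10, or 1405 and 2515 counts against 1. *Trim25*, a ubiquitin ligase, had 48.8 and 77.6 TPM against 0.55 (log2 difference 7.38 ± 0.57 (SE), adjusted p = 0.00047). *Dnah8*, a dynein heavy chain of sperm tails, had 15.2 and 10.0 TPM against 0.08. *Gm10324* had 78.9 and 86.8 TPM against 0 and lost its call with DESeq2.

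*Zfp980*, *Zfp988*, *Zfp534* and *Rex2* are neighbours on chromosome 4, which led to a look at their surroundings after their values were seen. In a window of 3 Mb around them, 39 genes had enough counts, of which 28 were more than 2-fold higher and 0 were lower. Over all genes with enough counts, 11.7% were more than 2-fold higher and 16.7% lower. Among 20 zinc finger genes there, 19 were called higher and 0 lower. When every library had to hold enough counts, only 3 of them could be tested, and 2 were called higher. The row's calls therefore rest mostly on genes with few counts outside the BV+SC+ libraries. The summed level of the 20 genes was 795 and 822 TPM in BV+SC+ cells and 22.2 at Day 3. It was 15.9 at Day 3 without SGC0946 and 30.7 to 37.4 in EpiSCs. *Zfp534* had 46.7 and 45.7 TPM against 0, at least 124-fold and 125-fold higher. *Zfp933*, at the end of the row, had 4.03 and 5.25 TPM against 2.80 and was not called (adjusted p = 0.21). Copies in this row share sequence, such as 99.9% of the transcript of *Zfp991* and 15.6% of that of *Zfp980*, and the estimated counts of single members are uncertain. The part of day, sort, medium, inhibitor or a possible difference in cell line was not tested. Of all 366 tested genes whose symbol starts with Zfp, 68 were called higher and 36 lower, against 12.1% and 16.1% of all genes. These include the Zfp genes of the row.

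**Figure D3:**
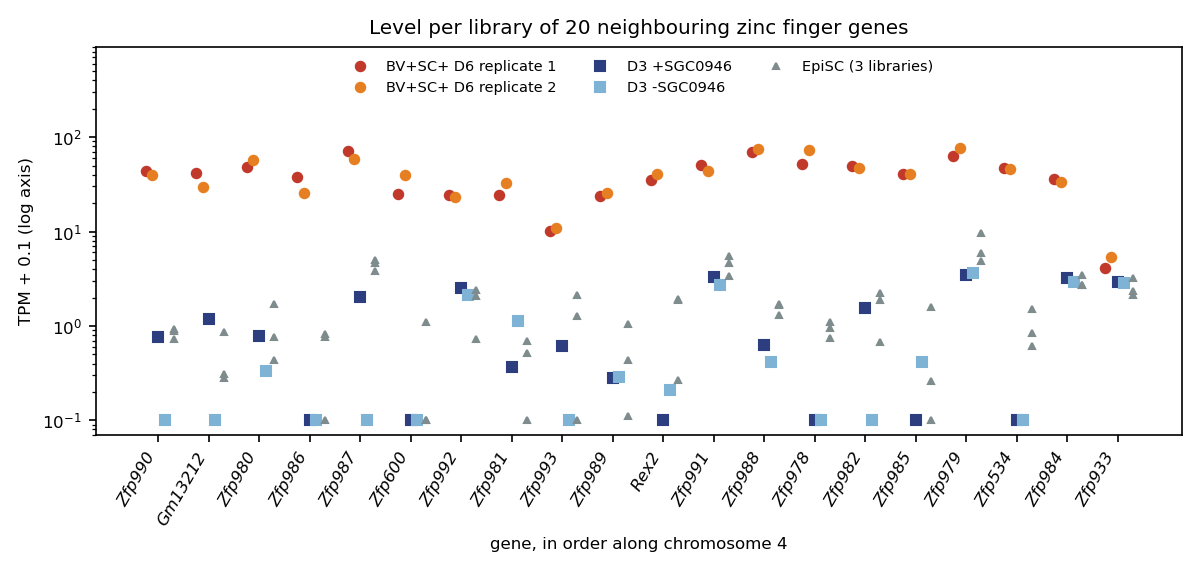
Level (TPM + 0.1, log axis) of 20 zinc finger genes in their order along chromosome 4, with 1 point per library. The BV+SC+ libraries lie above Day 3 and EpiSC libraries for all 20, with *Zfp933* closest at 4.03 and 5.25 TPM against 2.80.

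Of the genes furthest lower, HOX and mesoderm genes took several places: *Hoxc9*, *Hand1*, *Hoxc10*, *Dlx2*, *Hoxc8*, *Gm14226*, *Nrp1*, *Hoxc6*, *Unc5c*, *Slitrk2*, *P4ha3* and *Isl1*. HOX genes, which pattern the body axis, had no member called higher. Of 39 genes, 33 were tested and 23 were called lower. The 31 genes with enough counts had median log2 differences of -4.34 and -5.76. Their summed level was 20.4 and 2.82 TPM against 620, between 2.82 and 3.23 in EpiSCs and 1620 at Day 3 without SGC0946. *Hoxc10* had 65.5 TPM at Day 3 and no count in either BV+SC+ library, at least 291-fold and 340.5-fold lower. *Hoxc9* had 0.10 and 0 TPM against 82.4.

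Mesoderm and trophoblast genes were lower in BV+SC+ cells. Of 18 primitive streak and mesoderm genes tested, 13 were called lower and 1, *Eomes*, was called higher, with median log2 differences of -4.20 and -4.92. *Hand1* (chromosome 11, 57828705 to 57832818), a transcription factor of trophoblast and heart mesoderm, had 0.88 and 1.36 TPM against 493 (log2 difference -8.57 ± 0.28 (SE), adjusted p = 2.16e-05). *Msx1* had 14.1 and 0.23 TPM against 420 (-5.71 ± 1.17, adjusted p = 0.0075), and the libraries differed widely. *T*, the mesoderm factor Brachyury, had 13.8 and 1.38 TPM against 16.9. It was not called (adjusted p = 0.42), and its log2 difference was -4.60 without BV+SC+ replicate 1.

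Of 20 trophoblast genes tested, 16 were called lower and 1, again *Eomes*, higher. Their summed level was 674 and 279 TPM against 12470. *Gata3* had 1.13 and 0.81 TPM against 28.01 (log2 difference -4.62 ± 0.40 (SE), adjusted p = 0.00021). *Gata2* had 15.2 and 4.16 TPM against 82.1 (-2.88 ± 0.57, adjusted p = 0.0067), and *Cdx2* had 4.77 and 0.37 against 53.0 (-4.19 ± 0.99, adjusted p = 0.021). *Gata2* and *Cdx2* lost their calls with DESeq2. *Krt7*, a keratin of simple epithelia, had 1.75 and 1.67 TPM against 0.94 and was not called (adjusted p = 0.62). *Elf5* had too few counts to be tested. Of 7 endoderm genes tested, against 16.1% lower and 12.1% higher of all genes tested, 4 were called lower and 1 higher. The latter was *Apoe*, a lipid carrier that many cell types make, with 3696 and 2192 TPM against 469 (2.42 ± 0.30, adjusted p = 0.00090).

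**Figure D4:**
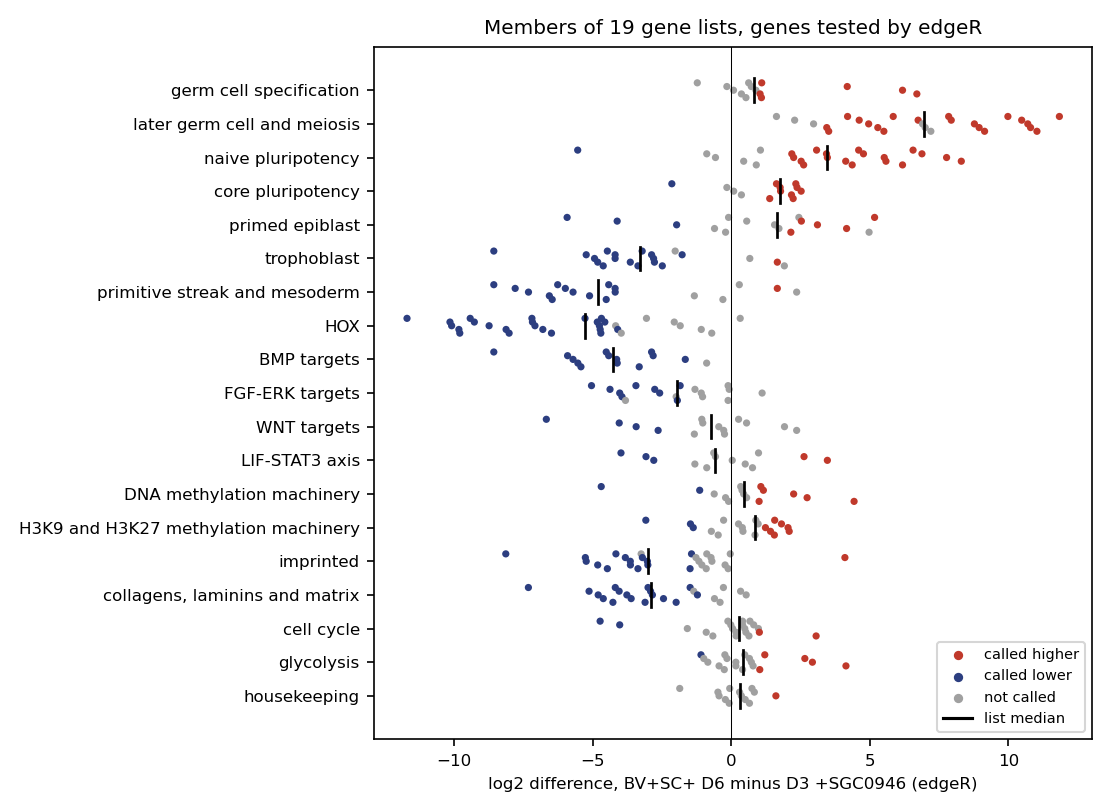
Log2 difference (edgeR) between BV+SC+ and Day 3 cells for each tested member of 19 gene lists, with the list median as a bar. Values of genes with no count in a group depend on the prior count. All 23 called HOX genes and all 13 called BMP targets lie to the left of 0, and all 20 called later germ cell genes lie to the right.

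Targets of BMP, the ligand of the first 3 days, were lower in BV+SC+ cells than in the Day 3 cells. Of 14 genes, 13 were called lower and 0 higher, with median log2 differences of -4.10 and -4.56. *Id1*, an inhibitor of bHLH factors, had 21.0 and 12.2 TPM against 791 (log2 difference -5.42 ± 0.40 (SE), adjusted p = 0.00012). *Id3* had 72.6 and 62.4 TPM against 779 (-3.32 ± 0.34, adjusted p = 0.00042). *Bambi*, a decoy receptor, had 4.85 and 3.90 TPM against 90.1. *Smad7*, an inhibitory SMAD, had 26.0 and 26.8 TPM against 47.2 and was not called (adjusted p = 0.064).

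The FGF-ERK and WNT lists differed between the BV+SC+ libraries. Of 18 FGF-ERK targets, 9 were called lower and 0 higher, against 16.1% and 12.1% of all genes tested. Their median log2 differences were -3.35 and -1.71 in replicates 1 and 2. *Ccnd1*, cyclin D1, had 2.59 and 2.99 TPM against 55.6 (log2 difference -4.03 ± 0.18 (SE), adjusted p = 5.47e-05), and 29.5% of its transcript is shared with the gene *LTO1*. *Etv4*, an ETS factor, had 0.05 and 59.5 TPM against 85.9, and *Spry4*, a feedback inhibitor, had 0 and 6 against 51.3. Neither was called (adjusted p = 0.51 and 0.057). Of 14 WNT targets tested, 4 were called lower and 0 higher, beside the same shares of all genes. Their median log2 differences were -0.43 and -2.07 in replicates 1 and 2. *Axin2*, a negative regulator of WNT signalling, had 61.4 and 15.4 TPM against 99.4 and was not called (adjusted p = 0.19). *Dkk1*, a secreted WNT inhibitor, had 3.02 and 0.21 TPM against 184 (-6.67 ± 0.76, adjusted p = 0.00066). On the LIF-STAT3 axis, 2 of 13 genes were called higher and 3 lower, close to the 12.1% and 16.1% of all genes tested. No direction is given for that list. *Socs3*, a STAT3 target, had 2.28 and 10.8 TPM against 113 (-3.98 ± 0.86, adjusted p = 0.0090), while *Pim1* had 120 and 287 against 38.7 (2.63 ± 0.60, adjusted p = 0.011).

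Imprinted genes were mostly lower. Of 28 tested, 15 were called lower and 1 higher. The 27 with enough counts had median log2 differences of -2.17 and -3.50. *Igf2*, a growth factor, had 170 and 75.9 TPM against 7044 (log2 difference -5.23 ± 0.36 (SE), adjusted p = 0.00010), and *H19*, the RNA beside it, had 5.48 and 22.6 against 430 (-4.82 ± 0.57, adjusted p = 0.00074). Replicate 1 was the higher of the pair for *Igf2* and the lower for *H19*. *Peg10* had 79.1 and 25.6 TPM against 1274, and *Mest* had 48.6 and 69.2 against 785, of which 34.2% of the transcript is shared with *Copg2*. *Snrpn* had 93.4 and 164 TPM against 154 and was not called (adjusted p = 0.93). *Peg3* had 108 and 240 TPM against 331 and was not called (adjusted p = 0.17). Its log2 difference was -1.41 without replicate 2. Levels of imprinted genes do not tell which allele was read.

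Genes that write and erase DNA methylation moved in part. Over all genes tested, 12.1% were called higher and 16.1% lower, and the share of this list called lower was close to the latter. Of 15 tested, 6 were called higher and 2 lower, and 3 were higher with an offset for effective length. *Uhrf1*, which brings DNMT1 to replicated DNA, had 93.1 and 78.7 TPM against 220 (log2 difference -1.14 ± 0.13 (SE), adjusted p = 0.00075). *Dnmt3b* had 17.6 and 41.9 TPM against 40.4 and *Dnmt3a* had 26.7 and 42.6 against 38.6, neither called (adjusted p = 0.71 and 0.74). EpiSCs had 679 to 732 TPM of *Dnmt3b*. *Dnmt3l*, a cofactor without catalytic activity, had 36.6 and 108 TPM against 3.85 (4.43 ± 0.89, adjusted p = 0.012). *Tet1* and *Tet2*, which oxidise 5-methylcytosine, were called higher and *Tet3* lower: *Tet1* had 56.5 and 67.9 TPM against 12.6, and *Tet3* had 1.18 and 1.09 against 25.5.

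Of 19 genes for H3K9 and H3K27 methylation, 7 were called higher and 3 lower, against 12.1% and 16.1% of all genes tested. The share called lower was close to that of all genes. Among PRC2 genes, *Suz12* had 138 and 179 TPM against 63.0 (log2 difference 1.56 ± 0.22 (SE), adjusted p = 0.0016) and *Mtf2* had 180 and 227 against 68.0 (2.05 ± 0.20, adjusted p = 0.00034). *Ezh2*, the catalytic subunit, had 178 and 187 TPM against 156 and was not called (adjusted p = 0.056). *Kdm6b*, an H3K27 demethylase, had 12.5 and 3.81 TPM against 81.4 (-3.08 ± 0.48, adjusted p = 0.0023). *Dot1l*, the target of SGC0946, had 66.2 and 65.5 TPM against 66.8 and was not called (adjusted p = 0.21).

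Of 23 matrix genes tested, 17 were called lower and 0 higher. Of 17 epithelial and mesenchymal genes, 3 were called higher and 7 lower, against 12.1% and 16.1% of all genes tested. The keratins *Krt8* and *Krt18* of simple epithelia were called lower, with 51.1 and 12.9 against 205 TPM for *Krt8*. *Col1a1* had 0.95 and 1.80 TPM against 210 (log2 difference -7.32 ± 0.63 (SE), adjusted p = 0.00021), and 5 of 6 tested fibroblast genes were called lower. *Cdh1*, E-cadherin, had 67.5 and 70.7 TPM against 22.9 (1.78 ± 0.24, adjusted p = 0.0014). *Cdh2*, N-cadherin, had 11.2 and 5.08 TPM against 55.4 (-2.58 ± 0.38, adjusted p = 0.0018). *Twist2* had no count in BV+SC+ cells and 26.95 TPM at Day 3, with 58.1% of its transcript shared with *Gm29100*.

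General cell functions are given beside the shares of all genes called, 12.1% higher and 16.1% lower. Of 20 cell cycle genes, 2 were called higher (4 without BV+SC+ replicate 1) and 2 lower, and the latter were *Ccnd1* and *Ccnd2*. Of 13 housekeeping genes, 1 was called higher, *Hprt*, and 0 lower. Of 19 glycolysis genes, 5 were called higher and 1 lower, and 3 each way without BV+SC+ replicate 2. The median of the cell cycle list in replicate 1 was 0.06 and turned to -0.11 with TPM ratios, so no direction is given for that list. Of 16 immediate-early and heat shock genes, which respond to handling, 1 was called higher and 5 lower. *Fos* had 15.6 and 20.9 TPM against 266 at Day 3 and 98.7 to 654 in EpiSCs. Of the Rhox homeobox genes of the X chromosome, 8 were tested, 3 were called higher and 0 lower, and *Rhox5* had 281 and 770 TPM against 16.6. Several Rhox copies share sequence, such as 99.9% of the transcript of *Rhox4e* and 97.2% of that of *Rhox2a*. The estimated counts of such copies are uncertain. Of 8 neuroectoderm genes tested, 1 was called higher, *Pax6*, and 0 lower. Of 14 replication-dependent histone genes tested, 1 was called higher and 2 lower. Only 1 gene of the 2-cell stage list was tested, *Eif1a*, and it was not called.

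The BV+SC+ libraries lay on opposite sides of Day 3, beyond counting error, for 292 genes, and 22 of these were more than 2-fold away in both. *Phf19*, a PRC2 cofactor, had 8.83 and 86.7 TPM against 37.3, and *Mt1*, metallothionein 1, had 1348 and 253 against 542. *Tek*, the angiopoietin receptor, had 0.15 and 6.43 TPM against 0.87. Such genes are not among the kept ones, and whether they follow the medium or the replicate cannot be told apart.

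Levels in the other libraries are given side by side without a test, since the comparisons share a library. The median level of the 1736 higher genes was 21.9 and 23.3 TPM in BV+SC+ cells, 4.93 at Day 3 with SGC0946, 3.98 without it and 4.83 to 4.97 in EpiSCs. The median level of the 2469 lower genes was 2.04 and 1.45 TPM in BV+SC+ cells, 13.5 and 13.9 at Day 3 with and without SGC0946, and 6.56 to 6.77 in EpiSCs. The order of BV+SC+ cells and Day 3 with SGC0946 in these medians was set by the choice of genes.

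The sorted Day 3 cells gave a readout in libraries that the choice did not use. In their own edgeR test of 11018 genes, 1100 (9.98%) were called higher and 1418 (12.9%) lower in c-Kit+ than in c-Kit- cells. Of the genes more than 2-fold higher in BV+SC+ cells, 935 of 1736 were tested there. Their median log2 difference was 0.48, against 0.03 for all genes, and 246 (26.3%) were called higher in c-Kit+ cells and 81 (8.66%) lower. Of the genes more than 2-fold lower, 1717 of 2469 were tested, with a median of -0.52. Of these, 165 (9.61%) were called higher and 573 (33.4%) lower in c-Kit+ cells. *Nanog* was higher in c-Kit+ cells, with a log2 difference of 8.78 (adjusted p = 8.32e-07) as was *Dppa3* at 5.67 (adjusted p = 5.66e-05). *Gata2* was lower, at -3.52 (adjusted p = 5.82e-07). Some genes differed in sign between the readouts, such as *Sox3*, higher in c-Kit+ cells at 5.82 (adjusted p = 5.82e-07), and *Rhox6*, at -3.29 (adjusted p = 0.0056). *Zfp42*, *Prdm14* and *Dazl* were not tested there, and the shares cover the tested genes alone.

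**Figure D5:**
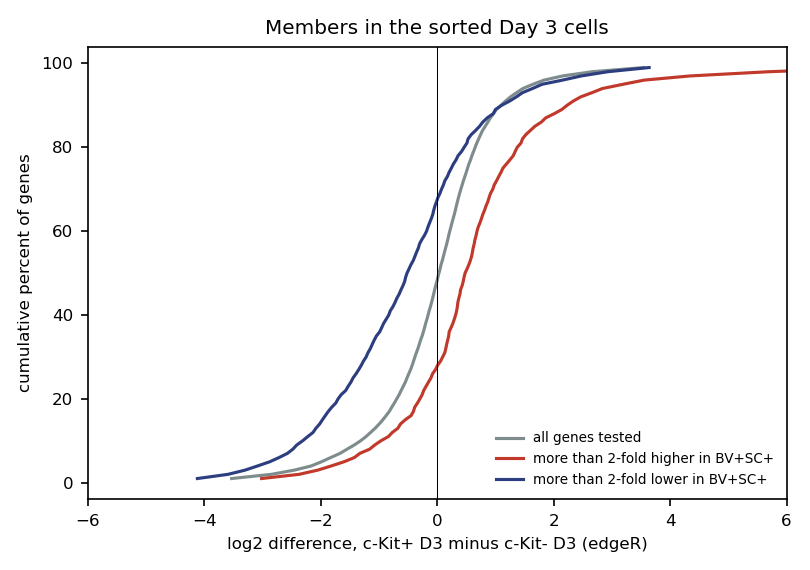
Cumulative percent of genes against the log2 difference between c-Kit+ and c-Kit- Day 3 cells, for all 11018 genes tested, the 935 tested genes more than 2-fold higher in BV+SC+ cells and the 1717 more than 2-fold lower. The curve of the higher genes lies to the right of all genes (median 0.48 against 0.03) and that of the lower genes to the left (median -0.52).

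The c-Kit libraries had 368 to 1011 counts of *Xist* and none of *Ddx3y* or *Eif2s3y*. The other 7 libraries had 43 to 637 counts of *Ddx3y*, 149 to 2428 of *Eif2s3y* and at most 73 of *Xist*. The sorted Day 3 cells and the BV+SC+ cells therefore differed in their sex-linked transcripts, and the part of this in the readout was not tested.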

How the data were processed

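Bulk RNA-seq of 11 libraries was used. Per the labels, the BV+SC+, Day 3 and EpiSC libraries were made from total RNA depleted of ribosomal RNA, aligned with Bowtie2 to mm10 and quantified with RSEM 1.3.1. The methods name a kit for mRNA and other versions, and the strand setting is not given in the sources used here. The authors deposited expected counts, which are estimates that divide shared reads among genes and are not normalized between libraries. They also deposited TPM and effective lengths in bases, both from RSEM, with replicates not pooled. The c-Kit files list 50600 genes and the others fewer, so tests stayed within each set. Symbols were found for 98.25% of the latter.

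Expected counts were rounded. Exact binomial (Clopper-Pearson) 95% intervals of count ratios were scaled by TMM factors. edgeR 4.0.16 (R 4.3.3) was run with filterByExpr, TMM and the quasi-likelihood test, with DESeq2 1.42.0 as an alternative. Shared sequence (98% identity over 75 bases) was found with BLAST+ 2.17.0. On simulated counts of 12880 genes for BV+SC+ against Day 3, edgeR recovered 93% of genes changed by 1.5 on the log2 scale and 100% at 3, with 5 false calls. The simulation gave every library the same small spread and changed only genes with many counts. It therefore checks that the code runs, and its rates do not carry over to the lone Day 3 library or the differing BV+SC+ libraries.

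The members and gene lists were chosen with earlier results of these data known. Named genes were those the study names for these cells, the 12 furthest higher and 12 furthest lower protein-coding genes with a mean of at least 5 TPM in the higher group, and members of the lists. Motifs and the chromosome 4 row were chosen after values were seen. Depth ranged from 2444211 to 3070115 counts in EpiSCs, was 4577685 at Day 3 without SGC0946, and ranged from 1726038 to 1841442 in the c-Kit libraries.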

Additional observations from a re-analysis of the deposited data

How the results depend on the processing

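Counts of genes more than 2-fold away in both libraries moved most with the filter and the fold. With at least 10 counts in all 3 libraries, 1091 were higher. At 4-fold, 643 were higher and 1314 lower. The edgeR calls fell to 1053 higher when each library had to reach 10 counts, a filter that removes genes silent in 1 group, and rose to 2579 higher at any fold. With the 3 compared libraries alone (1 residual degree of freedom) they fell to 833 higher and 995 lower. Under the filter of 10 counts in each library, no gene of the later germ cell, mesoderm or HOX lists could be tested. Naive genes called higher went from 18 of 24 to 2 of 7 and germ cell specification genes from 6 of 14 to 1 of 6. The chromosome 4 zinc finger genes called higher went from 19 of 20 to 2 of 3. With the 3 libraries alone, 3 germ cell specification, 18 later germ cell, 18 naive, 17 HOX (lower) and 10 trophoblast (lower) genes were called. *Prdm1*, *Tfap2c*, *Msx1*, *Cdx2*, *Gata2* and *Krt8* lost their calls there. DESeq2, RLE factors, total counts, TPM ratios, thinning to the Day 3 depth, 99% intervals, an effective length offset and protein-coding genes alone kept the counts over all genes within 1.5 times, but not those of each list: DESeq2 called 13 of 26 later germ cell genes higher, and the length offset 3 of 15 DNA methylation genes. TPM ratios shifted log2 differences by -0.16 and -0.20 at the median. Of 711 pairs of a named gene and a setting, 690 kept call and direction, 10 lost a call, 11 gained one and 0 reversed.

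Leaving out 1 BV+SC+ replicate gave 5298 to 5557 kept genes higher and 5166 to 5477 lower, and 2205 to 2599 and 2890 to 3308 past 2-fold. Without 1 EpiSC replicate, edgeR called 1391 to 1457 genes higher and 1825 to 1911 lower. Without 1 BV+SC+ replicate it called more genes than the main test, with spread from the EpiSC replicates alone. The c-Kit median was 0.37 and -0.47 when each library had to reach 10 counts, and ranged from 0.43 to 0.58 and from -0.59 to -0.46 with a replicate left out. With the replicate number as a block it was 0.49 and -0.52. Deviations of same-numbered c-Kit libraries correlated at 0.114 over 5509 genes, and with 2 pairs they share only a number. No paired analysis was possible because Day 3 has 1 library without a number for BV+SC+ against Day 3.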

Other observations

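Genes of the Y chromosome were not uniform in the comparison. *Uba1y*, a ubiquitin-activating enzyme gene, had 44.9 and 32.1 TPM in BV+SC+ cells against 0.30 at Day 3, and *Zfy1*, a zinc finger gene, had 10.8 and 13.6 against 0. Of 15 Y genes with enough counts, 5 (33.3%) were more than 2-fold higher and 1 (6.67%) lower, against 11.7% and 16.7% of all genes with enough counts. *Ddx3y*, an RNA helicase gene, had 12.3 and 15.2 TPM against 16.6 and was not called (edgeR, adjusted p = 0.84). These genes were chosen after their values were seen. The part of day, sort, medium, inhibitor or a possible difference in cell line was not tested.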
